A study of Mus musculus with 36 samples.

Results

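Ribosome biogenesis was followed in mouse blood through 40 genes that were chosen by name from the nucleolar machinery. They encode subunits and factors of RNA polymerase I, the core proteins of the small nucleolar ribonucleoproteins (snoRNPs), assembly factors of both ribosomal subunits, and the abundant proteins that form the nucleolus. A probe belonged to the set when the array annotation gave 1 of the 40 names, which held for 58 of the 39429 probes, and every member had at least 1 probe. Of the 40 members, 34 were among the 15077 genes tested, 5 (Fbl, Nhp2, Heatr1, Bop1, and Ncl) varied too little between arrays to pass the fold filter, and 1 (Utp18) was below background. Blood came from 36 young adult male C57BL/6J mice 7 days after exposure, each hybridised to its own single-colour Agilent array. There were 6 groups of 6 mice, namely sham-irradiated controls, 3 Gy x-rays, 3 mixed fields of 3 Gy in total with neutrons giving 5, 15, or 25% of the dose, and neutrons at 0.75 Gy. The neutron source also emits photons, although the label of the 0.75 Gy group reads 100%, and this group differed from the others in total dose as well as in radiation quality.

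The ribosome is built in the nucleolus, where RNA polymerase I copies the ribosomal DNA into a long precursor. Box C/D and box H/ACA snoRNPs methylate and pseudouridylate the precursor, the small subunit processome folds and cuts the part that becomes the small subunit, and separate factors assemble the large subunit before both are exported. Blood cells such as resting lymphocytes carry small nucleoli and enlarge them when they are activated, whereas maturing red cells and granulocytes shut the process down.

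Levels are given as log2 intensities relative to the median of each array, which is set to 0, so that levels of different probes cannot be ranked against each other. Each comparison was fitted with limma on its 12 arrays, and a gene was called when its p was below 0.001 and its p after Benjamini-Hochberg adjustment over all genes tested was below 0.05. Controls and x-rays were scanned in the same session (session 1, 5 arrays of each), 5 arrays each of the 5 and 15% mixed fields in session 2, and all 25% and neutron arrays in session 3. The only slide to hold 4 groups, called the shared slide, was scanned in session 4. It held control replicate 3, x-ray replicate 6, 5% replicate 5, and 15% replicate 3. Some other slides held controls with x-rays, the 5% with the 15% mixed field, or the 25% mixed field with neutrons. Session and exposure can therefore be told apart for x-rays, by 1 array per group for the 5 and 15% mixed fields, and not at all for the 25% mixed field and neutrons, whose difference from controls cannot be told apart from the scan session.

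Most members were lower after every exposure. After x-rays 13 of the 34 members tested fell and none rose, where 16.9% of all genes tested were called lower and 12.9% higher. In the 5% mixed field 6 fell and 1 rose, against 14% of all genes lower and 9.01% higher, and in the 15% mixed field 15 fell and 1 rose, against 16.6% and 12.6%. In the 25% mixed field 10 fell and 1 rose, against 13.9% and 10.9%, and after 0.75 Gy neutrons 16 fell and 2 rose, against 20.4% and 16.1%. The member that rose in each mixed field was Ubtf, and after neutrons Ubtf and Dkc1 rose. The 6 of 34 in the 5% mixed field were near that background, and the counts of the other exposures were above it. Single arrays moved these counts. The x-ray count was 23 without x-ray replicate 1 and 5 to 7 without x-ray replicate 2, 3, or 4 or any 1 of the controls. It was 4 without the slide that 4 groups share, where 21.3% of all genes were called in either direction. In the 5% mixed field 18 members were called without its replicate 3, and 4 without its replicate 6 or control replicate 5 or 6. In the 25% mixed field 5 were called without its replicate 2 or 3 or control replicate 2, 5, or 6. No share of all genes is given for the counts that leave out 1 array. They cannot be read against the background shares above. For 12, 5, 16, 13, and 18 members, in the order x-rays, 5, 15, and 25% mixed fields, and neutrons, every exposed array lay below every control, against 17, 13.8, 16.2, 15.4, and 20.2% of all genes. The direction was shared more widely than the calls. The log2 change was negative in 32 members after x-rays, in 31 in the 5% mixed field, and in 30 in each of the other exposures, where between 50.6 and 54.5% of all genes were negative. The median log2 change over the members was -1.17, -0.80, -1.0, -0.77, and -0.82 after x-rays, the 5, 15, and 25% mixed fields, and neutrons, beside -0.11, -0.078, -0.019, -0.12, and -0.12 over all genes. Across 5 exposures, 3 members were called every time, 5 in 4 exposures, 7 in 3, 9 in 1, and 10 in none. All 5 exposures were set against the same 6 control arrays. With the scan session as a block, 9 members fell after x-rays (median -1.17), and none was called in the 5 and 15% mixed fields, where the block leaves 1 array against 1 and the medians were -0.84 and -0.49.

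The number of calls moved with the scaling, and the sign of the median did not. Under 10 other choices of centring, filter, probe, or table the median over the members stayed negative in all 5 exposures. Centring on the spike-ins moved the median of all genes to between -1.85 and -0.88 and centring on the 75th percentile to between 0.11 and 0.44, and the members lay below it each time. After x-rays, 4 members fell and 1 rose with the 75th percentile, 7 fell and 1 rose with quantile normalization, and 35 fell with spike-ins, which left 39 members past the fold filter. Normexp background correction left 1 call in all, a rise in the 15% mixed field. In the 5% mixed field quantile normalization gave 10 falls and no rise, and spike-ins gave 37 falls and no rise after neutrons. Of all genes called after x-rays, 37.6, 54.7, and 95.8% were lower with the 75th percentile, quantile normalization, and spike-ins. After neutrons 99.2% were lower with spike-ins, and in the 5% mixed field 67.8% with quantile normalization. These shares are of the genes called, not of the genes tested, and give no background for the counts of members. The background shares given with the reported counts belong to the reported scaling only.

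**Figure D1:**
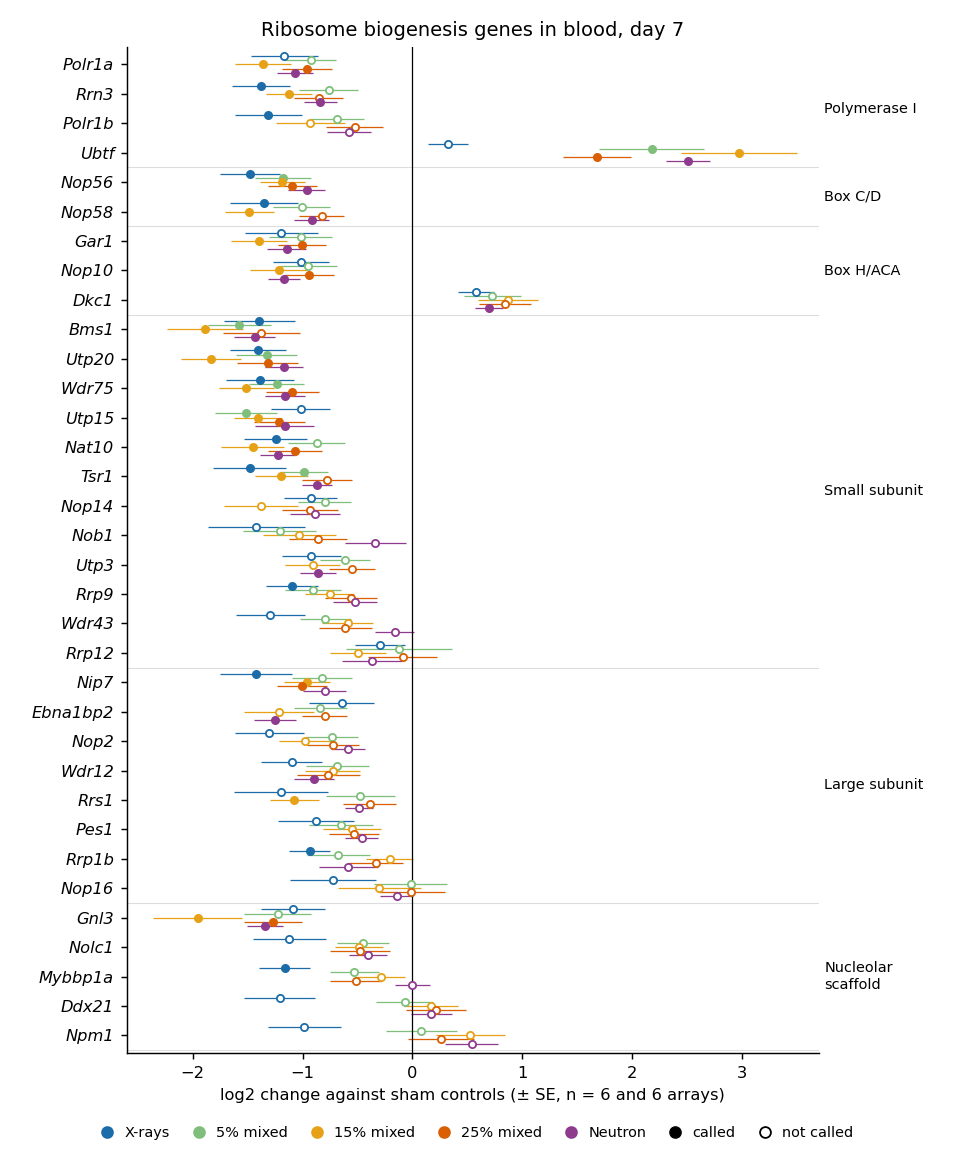
Change of each of the 34 members tested, grouped by role, on the x axis as the log2 difference from sham controls with its SE (n = 6 and 6 arrays) and 1 colour per exposure; filled points were called, and the 5% point of Utp15 is a measured difference for which only a bound holds. Most points lie between -2 and 0, while Ubtf and Dkc1 lie above 0 in all 5 exposures.

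The size of the difference varied between mice. The median over the 34 members, taken on each array as the log2 difference from the control mean, was -0.23, -0.028, and 0.25 (lowest, median, and highest) in controls, -2.17, -1.05, and -0.30 after x-rays, and -1.10, -0.90, and -0.020 in the 5% mixed field. The same 3 values were -1.55, -0.92, and -0.70 in the 15% mixed field, -1.34, -0.69, and -0.35 in the 25% mixed field, and -1.07, -0.69, and -0.51 after neutrons. X-ray replicate 1 (-0.30) and 5% replicate 3 (-0.020) stood apart from their groups, in which every other array lay at or below -0.93 and -0.85. Array detection moved with this value. In 4 of 5 exposures the array with the fewest probes well above background was also the array with the lowest members, as in x-ray replicate 5 with 16550 probes, against 19496 to 20751 on the control arrays. The part of detection in the result was not tested. On the shared slide, whose exposed arrays had 17826, 21300, and 21200 such probes, the member median lay 0.83, 0.84, and 0.49 below control replicate 3 for x-rays, 5%, and 15%. There 31, 32, and 30 of the 34 members were lower than in control replicate 3, beside 50.2, 55.6, and 52.5% of all genes, with 1 array per group and no test.

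**Figure D2:**
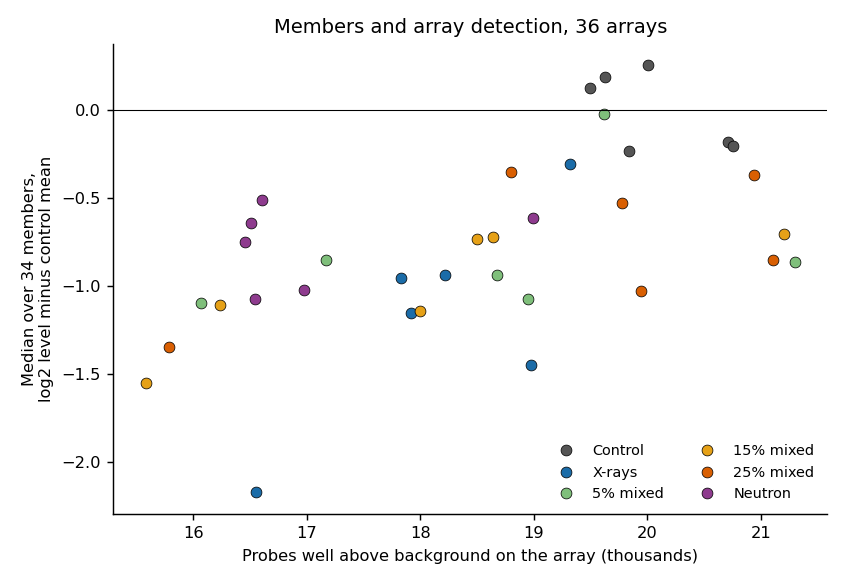
Each point is 1 of 36 arrays, with the number of probes well above background on the x axis and the median over 34 members on the y axis (log2 level minus the control mean). Controls sit between -0.23 and 0.25, the exposed arrays between -2.17 and -0.020, and the lowest point is x-ray replicate 5.

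Markers of several cell types changed in the same samples. All 8 B-cell markers tested fell after x-rays and in each mixed field, with median log2 changes of -4.31, -3.71, -4.18, and -4.30, and 7 of 8 fell after neutrons with a median of -1.29. The log2 of their summed intensities ranged from 11.2 to 12.1 in controls, from 5.75 to 9.31 over the x-ray and mixed field arrays, and from 10.03 to 10.54 after neutrons. Such a sum rests mostly on the brightest markers of a list. Pax5 was not well above background on most arrays. T-cell markers were called lower for 3, 3, 3, 2, and 0 of 9. Of 8 erythroid markers, 5, 5, 5, 3, and 8 rose, and of 10 mitosis genes 5, 8, 9, 9, and 4 rose. The log2 of the summed erythroid intensities was 15.5 to 15.8 in controls and 15.6 to 17.6 after exposure. The erythroid list named the globin genes Hbb-b1 and Hba-a1, and the study reduced globin RNA before labelling. The part of this step in the sum was not tested. For the mitosis list the log2 of the summed intensities was 6.28 to 6.79 in controls and 8.24 to 10.9 after exposure. The mitosis sum is over 11 genes, of which Bub1 and Aurkb were not well above background on most arrays. The same held for Mpo of the progenitor list. Neutrons and x-rays differed in the B-cell markers, of which 5 of 8 were called higher after neutrons (median log2 difference 2.72). The median log2 difference over the members between the same 2 groups was 0.42, beside 0.094 over all genes. Neutrophil markers rose for 3 of 8 in each exposure and fell for 0, 0, 1, 1, and 1, and no NK-cell marker of 6 was called in limma. Rises were called for 0, 0, 0, 0, and 2 of 5 monocyte, 0, 0, 1, 2, and 1 of 6 platelet, and 1, 0, 2, 2, and 2 of 5 progenitor markers. The part of any cell type in the members' change was not tested, and in whole blood fewer cells of a type and less RNA per cell cannot be told apart.

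Among the genes of RNA polymerase I transcription, Polr1a, the catalytic core of the polymerase, fell in the 15 and 25% mixed fields and after neutrons, with log2 changes of -1.17, -0.93, -1.36, -0.96, and -1.07 in the order x-rays, 5, 15, and 25% mixed fields, and neutrons, which is used throughout. Rrn3, the factor that brings the polymerase to the ribosomal DNA promoter, fell after x-rays, in the 15% mixed field, and after neutrons (-1.37, -0.76, -1.12, -0.85, and -0.84). Polr1b, the second polymerase subunit, was called after x-rays and in no other exposure (-1.31, -0.69, -0.93, -0.53, and -0.58). Ubtf, which holds the ribosomal DNA open, was the member that rose, and its probes are described further on.

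Nop56, a core protein of box C/D snoRNPs, fell in all 5 exposures, and its groups did not overlap with controls in any. Its lowest, median, and highest levels were 6.23, 6.69, and 7.17 in controls, 4.42, 5.17, and 6.11 after x-rays, and 5.34, 5.81, and 5.93 after neutrons. In the 5, 15, and 25% mixed fields they were 5.03, 5.41, and 6.09, then 5.32, 5.45, and 5.80, and 5.09, 5.64, and 5.91. The highest exposed array, x-ray replicate 1, stayed below the lowest control. The log2 changes were -1.48, -1.18, -1.19, -1.09, and -0.96, a fall of 2.79-fold after x-rays and 1.95-fold after neutrons, with limma adjusted p of 0.000625, 0.00203, 0.000343, 0.00122, and 0.000328. The exact two-sided permutation p was 0.00216 in each comparison, the smallest that 6 against 6 arrays allow. All 3 Nop56 probes were lower in every exposure. Its partner Nop58 fell after x-rays, in the 15% mixed field, and after neutrons (-1.35, -1.01, -1.49, -0.83, and -0.92). Fbl, the methyltransferase of the same particle, was not tested for lack of variation, and without the fold filter its log2 changes were -1.15, -0.41, -0.30, -0.45, and -0.26 with no call. Its probe is placed on chromosome 17, whereas the gene lies on chromosome 7.

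By their group means, the box H/ACA genes tested went in opposite directions. Gar1 and Nop10, core proteins of the particle, fell in the 15 and 25% mixed fields and after neutrons, with log2 changes of -1.19, -1.01, -1.40, -1.01, and -1.14 for Gar1 and -1.01, -0.95, -1.21, -0.94, and -1.17 for Nop10. Dkc1, the pseudouridine synthase that they accompany, was called higher after neutrons (0.58, 0.73, 0.87, 0.84, and 0.70, limma adjusted p of 0.00886, 0.0334, 0.0169, 0.0101, and 0.000465). Its lowest, median, and highest levels were 2.24, 2.51, and 2.65 in controls and 2.88, 3.20, and 3.37 after neutrons, without overlap. After x-rays (2.84, 3.11, and 3.33) and in the 25% mixed field (3.05, 3.11, and 4.36) it also lay above every control, while the 5% (2.49, 3.47, and 3.76) and 15% (2.43, 3.35, and 4.35) mixed fields overlapped with controls. On the shared slide, with 1 array per group, the log2 difference of Dkc1 from control replicate 3 was 0.56 for x-rays. It was -0.087 for the 5% and -0.20 for the 15% mixed field, so the rise in these fields was absent there. Gar1 read -0.84 and -0.44 and Nop10 -0.48 and -0.31 in the same 2 mixed fields on that slide. Centring on spike-ins turned the neutron change of Dkc1 to -0.98. Nhp2, the remaining core protein, varied too little to be tested (-0.87, -0.16, -0.042, -0.016, and -0.18 without the fold filter, none called).

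Of the small subunit processome, the role with the most members tested (12), 6, 5, 6, 4, and 7 fell, and all 12 were negative in every exposure. As shares these are 50, 41.7, 50, 33.3, and 58.3%, beside the 16.9, 14, 16.6, 13.9, and 20.4% of all genes called lower. Utp20, a large scaffold of the processome, was called each time. The lowest, median, and highest readings were 1.19, 1.76, and 2.02 in controls, -0.25, 0.26, and 1.21 after x-rays, and 0.18, 0.62, and 0.81 after neutrons, and -0.21, 0.19, and 1.23, then -0.79, -0.20, and 0.92, and -0.45, 0.64, and 1.01 in the 5, 15, and 25% mixed fields. The 15 and 25% mixed fields and neutrons lay wholly below controls, and 5 of 6 arrays did after x-rays and in the 5% mixed field. All 6 control arrays read Utp20 well above background, but only 1, 2, 1, 4, and 1 of the 6 exposed arrays did, so its folds are near the lower end of what the array measures. The log2 changes of -1.41, -1.33, -1.84, -1.32, and -1.17 had limma adjusted p of 0.000628, 0.00176, 0.00012, 0.00152, and 7.67e-05.

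Wdr75 belongs to the subcomplex that binds the precursor first and was likewise called in all 5 exposures. Controls gave a lowest, median, and highest level of 3.42, 3.83, and 4.15, x-rays 1.52, 2.36, and 3.56, and neutrons 2.26, 2.71, and 3.04. The 5, 15, and 25% mixed fields gave 2.22, 2.44, and 3.46, then 1.80, 2.31, and 2.84, and 2.09, 2.80, and 3.21. An x-ray array (replicate 1) and a 5% array (replicate 3) reached into the control range. The log2 changes were -1.39, -1.23, -1.51, -1.09, and -1.16 (limma adjusted p of 0.00226, 0.00141, 0.000248, 0.00209, and 0.000142). Utp15, of the same subcomplex, was close to the array median in controls (0.042, 0.48, and 0.90). It read -1.34, -0.27, and -0.10 after x-rays, -1.65, -1.19, and -0.32 in the 5% field, and -1.41, -0.81, and -0.69 in the 15% field. The 25% field read -1.40, -0.74, and -0.11 and neutrons -1.75, -0.53, and -0.073, so that no exposed array reached a control. It was well above background on all 6 control arrays and on 1, 0, 1, 3, and 1 of the 6 exposed ones. In the 5% mixed field only a bound can be given, and controls were at least 1.39-fold higher, with measured means of 0.46 in controls and -1.06 in the 5% field. It was called in the mixed fields and after neutrons, with limma adjusted p of 0.00582, 0.000867, 0.00017, 0.00096, and 0.00231, and log2 changes outside the 5% field were -1.02, -1.41, -1.21, and -1.16.

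Bms1, a GTPase of the processome, showed the largest mean fall over the 5 exposures of the members tested. Its lowest, median, and highest levels were 2.15, 2.32, and 2.56 in controls, -0.49, 1.13, and 1.92 after x-rays, and 0.25, 1.08, and 1.30 after neutrons. They were 0.23, 0.56, and 1.93, then -0.83, 0.58, and 1.42, and -0.84, 1.36, and 1.43 in the 5, 15, and 25% mixed fields. Every exposed array lay below every control. The log2 changes were -1.39, -1.57, -1.89, -1.37, and -1.43, up to 3.7-fold lower in the 15% mixed field, and the 25% mixed field was not called (limma adjusted p of 0.00275, 0.000697, 0.000579, 0.00557, and 3.02e-05). Its replicate 5 stood far below the other 25% arrays, and 5, 3, 3, 5, and 1 of the 6 arrays read it well above background.

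Nat10, which acetylates cytidines of the small subunit rRNA, had a lowest, median, and highest level of 3.85, 4.30, and 4.63 in controls, 1.98, 3.08, and 3.99 after x-rays, and 2.77, 3.04, and 3.43 after neutrons. The mixed fields gave 3.01, 3.29, and 4.40, then 2.27, 2.58, and 3.73, and 2.47, 3.33, and 3.80. It fell in every exposure but the 5% mixed field, where replicate 3 sat among the controls, with log2 changes of -1.25, -0.87, -1.45, -1.07, and -1.22 and limma adjusted p of 0.00259, 0.0148, 0.00092, 0.00284, and 3.46e-05. Tsr1, which acts late in the assembly of the small subunit, had levels of 2.57, 2.92, and 3.21 in controls, 0.048, 1.38, and 2.53 after x-rays, and 1.82, 2.00, and 2.18 after neutrons. In the mixed fields they were 1.56, 1.82, and 2.56, then 1.12, 1.66, and 2.25, and 1.59, 2.19, and 2.56. All exposed arrays were below all controls, and the call was missed only in the 25% mixed field (-1.48, -0.98, -1.19, -0.78, and -0.87, limma adjusted p of 0.00235, 0.0027, 0.00103, 0.0125, and 0.000139). Both Tsr1 probes were lower in every exposure, but they cover almost the same bases (chr11:74722413-74722472 and chr11:74722409-74722468) and are not separate readings of the gene. Of the other members of this group, Utp3 was called after neutrons and Rrp9 after x-rays, and Nop14, Nob1, Wdr43, and Rrp12 in no exposure. Nob1, the nuclease that makes the last cut of the small subunit rRNA, had log2 changes of -1.42, -1.21, -1.03, -0.86, and -0.34, and Rrp12, an export factor, of -0.30, -0.12, -0.50, -0.090, and -0.37. Rrp12 was well above background on 2 of 6 control arrays and on none after x-rays, in the 15% mixed field, or after neutrons. Heatr1 varied too little to be tested (-0.29, -0.095, -0.018, -0.13, and -0.17 without the fold filter), and Utp18 was above background on 3 of 36 arrays.

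**Figure D3:**
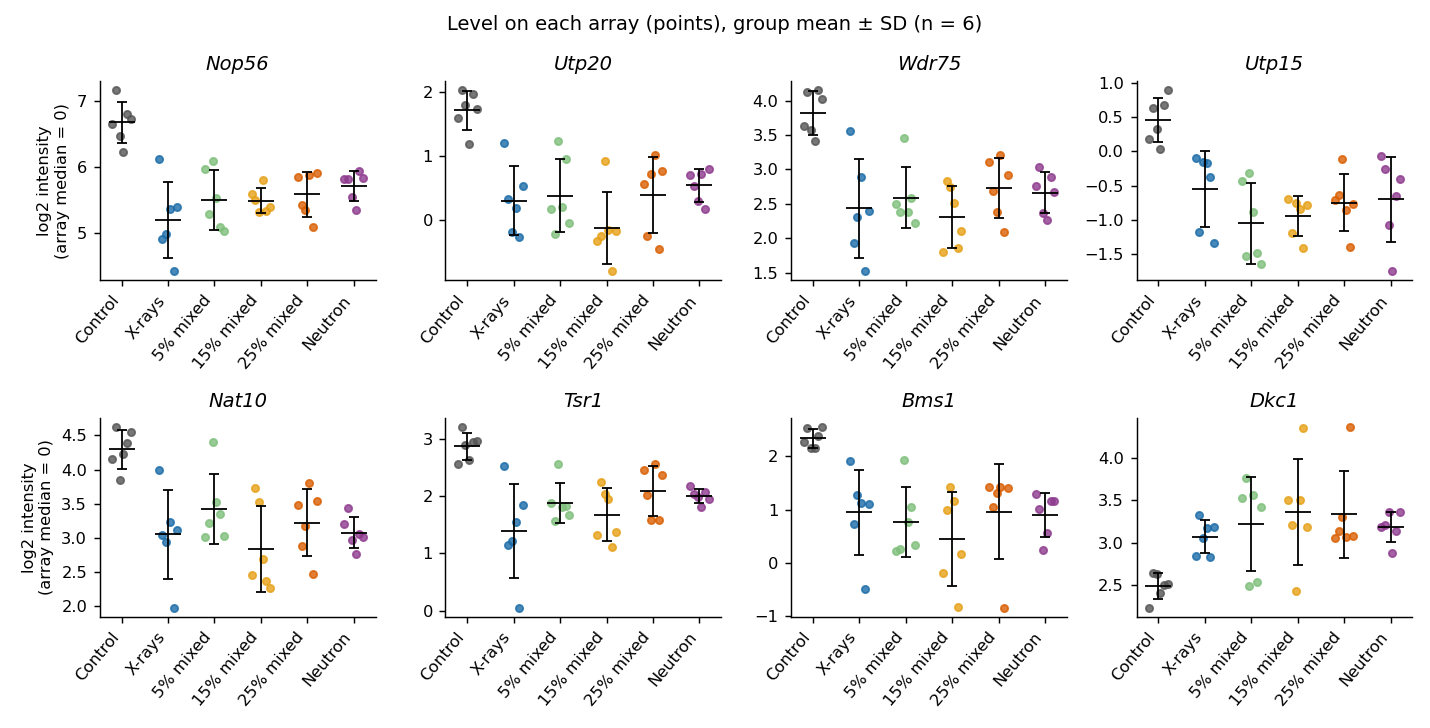
Level of 8 members on each array (points), with group mean and SD (n = 6), on the y axis as log2 intensity relative to the array median. The 7 processome and box C/D genes are lower after exposure than in controls on most arrays, whereas Dkc1 is higher.

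Of 8 large subunit factors tested, 2, 0, 2, 1, and 2 fell (25, 0, 25, 12.5, and 25%), which is near the share of all genes called lower except for the 5% field, where none was called, and all 8 were negative in every exposure. Nip7, an rRNA processing factor, fell after x-rays and in the 15 and 25% mixed fields (-1.42, -0.82, -0.96, -1.01, and -0.80). A brighter Nip7 probe that did not pass the fold filter gave -1.33, -0.82, -1.02, -0.76, and -0.53. Without that filter no large subunit factor was called in the 25% mixed field. Ebna1bp2, an assembly factor, fell after neutrons (-0.64, -0.84, -1.21, -0.80, and -1.25), as did Wdr12, a subunit of the PeBoW complex that matures the large subunit rRNA (-1.10, -0.68, -0.73, -0.77, and -0.89). The fall of Ebna1bp2 rests on the probe that passed the fold filter, and a brighter probe that did not pass it gave -0.95, -0.31, -0.23, -0.26, and -0.41 and was not called after neutrons (limma adjusted p = 0.0405 over 21484 probes). Rrs1, needed to incorporate the 5S particle, fell in the 15% mixed field (-1.19, -0.48, -1.08, -0.39, and -0.49), and Rrp1b after x-rays (-0.94, -0.67, -0.21, -0.33, and -0.58). Pes1, the PeBoW partner of Wdr12, and Nop2, an rRNA methyltransferase, were called in no exposure (-0.88, -0.65, -0.55, -0.53, and -0.46 and -1.30, -0.73, -0.97, -0.72, and -0.59), nor was Nop16 (-0.73, -0.017, -0.30, -0.010, and -0.14). Bop1, the third PeBoW subunit, passed no fold filter, and without that filter it was called lower after x-rays and in the 15% mixed field (-1.11, -0.87, -0.91, -0.72, and -0.60). The probe used for Wdr12 is placed on chromosome 7 and the gene on chromosome 1, and the probe on chromosome 1 gave -1.54, -0.62, -0.37, -0.48, and -0.28.

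Of the nucleolar scaffold proteins and regulators, 5, 4, 3, 3, and 3 of 5 were negative by the tested probes. The positive ones were Npm1 and Ddx21, whose probes disagree as described further on, and with the probes A_51_P467410 and A_52_P372032 in their place all 5 were negative in every exposure. Gnl3, or nucleostemin, a GTPase abundant in dividing progenitors, fell in the 15 and 25% mixed fields and after neutrons (-1.09, -1.23, -1.96, -1.27, and -1.34, limma adjusted p of 0.00695, 0.00519, 0.0013, 0.00144, and 1.75e-05). Its neutron arrays were closely grouped at 1.24 to 1.56, against 2.2 to 3.18 in controls, and the 15% arrays were spread from -0.81 to 2.2. On the shared slide the 15% array and control replicate 3 had nearly the same level of Gnl3, and the log2 change with the slide as a block was 0.0031. Nolc1, a chaperone of snoRNPs, was not called (-1.12, -0.45, -0.49, -0.48, and -0.40). Ncl, or nucleolin, varied too little for the fold filter and without it was called lower after neutrons (-0.86, -0.43, -0.50, -0.29, and -0.75). Mybbp1a, a nucleolar repressor of transcription, had a lowest, median, and highest level of 6.36, 6.69, and 7.03 in controls, 4.86, 5.51, and 6.22 after x-rays, and 6.41, 6.60, and 6.95 after neutrons, and 5.59, 6.15, and 6.59, then 5.85, 6.35, and 6.85, and 5.40, 6.30, and 6.55 in the mixed fields. It fell after x-rays, where no array overlapped with controls, and was called in no exposure with neutrons (-1.16, -0.53, -0.29, -0.51, and -0.0023, limma adjusted p of 0.00114, 0.0701, 0.297, 0.0862, and 0.991). On the shared slide, with 1 array per group, Mybbp1a read -0.93, -1.05, and -0.79 against control replicate 3 for x-rays, 5%, and 15%.

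Ubtf was read by 2 probes that disagreed in all 5 exposures, and the brighter one represented the gene. The probes are shown because the direction of Ubtf rests on the choice between them. Both are placed on chromosome 11 of mm9, minus strand, and the first 30 of 60 bases are given for each.
Ubtf A_55_P1992680, chr11:102166995-102167054: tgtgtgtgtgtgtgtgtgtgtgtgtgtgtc
Ubtf A_55_P1992676, chr11:102167265-102167324: aacgagacgtttcctaccgatctcggctgc
The brighter probe opens with an unbroken TG repeat of 29 bases. Its lowest, median, and highest levels were 8.73, 8.81, and 9.13 in controls, 8.79, 9.20, and 9.61 after x-rays, and 10.73, 11.34, and 12.04 after neutrons. In the 5, 15, and 25% mixed fields they were 8.98, 11.05, and 12.56, then 8.95, 12.30, and 12.998, and 9.20, 10.77, and 11.48. It rose in every exposure but x-rays, with log2 changes of 0.32, 2.18, 2.97, 1.68, and 2.51 and limma adjusted p of 0.141, 0.00238, 0.000459, 0.000638, and 5.32e-07. The low 5% and 15% arrays, at 8.98 and 8.95, were those of the shared slide, near control replicate 3 (8.73) and below x-ray replicate 6 (9.37) of that slide. The other probe fell instead, by the same fit over 21484 probes, with log2 changes of -1.01, -0.91, -1.14, -1.39, and -1.31 and limma adjusted p of 0.008, 0.00387, 0.00164, 0.000291, and 8.22e-05. Of the 21484 probes above background, 49 hold a TG repeat of 20 bases or more and carry the names of 49 genes. The bright Ubtf probe is 1 of them. The other 48 were all higher than controls in each of the 5 exposures, with median log2 changes of 0.37, 1.59, 2.38, 1.14, and 1.81, against -0.22, -0.14, -0.093, -0.14, and -0.19 over all 21484 probes. Of these 48 probes, 33, 6, 7, 6, and 5 had a larger change than the bright Ubtf probe, and after neutrons they ranged from 1.05 to 2.69. Of the 2 Ubtf probes, the one that rose is thus the one with the repeat, and the repeat class was chosen after the values were seen. The part of the repeat in the reading was not tested.

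Npm1, or nucleophosmin, the most abundant nucleolar chaperone, was read by 5 probes and Ddx21, an RNA helicase of rRNA transcription and processing, by 2. The probes that stood for the genes and others that they are compared with are shown by their first 30 bases.
Npm1 A_55_P1954965, chr10:38918913-38918972: atctgtacgagataccccagccaaaaatgc
Npm1 A_55_P2110718, chr11:33056672-33056731: cagccaaaaatgcacaaaaatcaaaccaaa
Npm1 A_51_P467410, chr11:33052565-33052624: cttggttttaagtatgtatggaatgttatg
Ddx21 A_55_P2161545, chr10:62044862-62044921: ttgcatcgttttccaacatacttttagatt
Ddx21 A_52_P372032, chr10:62043317-62043376: aaatgatctgtcataaaccaaacagtgaag
The tested Npm1 probe is placed on chromosome 10 although the gene lies on chromosome 11. Lowest, median, and highest values were 7.17, 7.56, and 8.18 in controls, 5.69, 6.68, and 7.66 after x-rays, and 7.60, 8.07, and 8.70 after neutrons, and 6.37, 7.91, and 8.28, then 6.84, 8.30, and 8.75, and 6.70, 8.16, and 8.31 in the mixed fields. All exposed groups overlapped with controls, and it was called in none (-0.98, 0.082, 0.53, 0.26, and 0.54). The 2 probes on chromosome 11 disagreed. A_55_P2110718, which shares a run of 27 bases with the tested probe, gave log2 changes of -0.94, 0.0036, 0.12, 0.34, and 0.50, like the tested probe lower after x-rays and in no other exposure. A_51_P467410 was lower throughout, with -1.34, -1.25, -1.47, -0.92, and -0.99 and limma adjusted p of 0.00369, 0.000722, 0.000205, 0.00244, and 0.00032 over 21484 probes. So were A_66_P129873, placed on chromosome X (-1.25, -1.44, -1.83, -1.18, and -1.27), and A_55_P2117243, placed on chromosome 10 (-0.55, -0.46, -0.53, -0.19, and -0.40), so that 3 of the 5 probes were lower in all exposures and 2 after x-rays alone. For Ddx21 the tested probe gave -1.21, -0.069, 0.17, 0.21, and 0.17 with no call, and the other -1.18, -1.18, -1.46, -1.0, and -0.92 with adjusted p of 0.00375, 0.000636, 0.00021, 0.000638, and 0.000219. The tested probe of Npm1 and that of Ddx21 were lowest, within the 5 and 15% mixed fields, on the shared slide, like the bright Ubtf probe. Over the set, 12 members had 2 or more probes above background, 7 of them with 1 direction in all exposures, and Ubtf, Npm1, Ddx21, Wdr43, and Pes1 with opposite directions in at least 1.

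**Figure D4:**
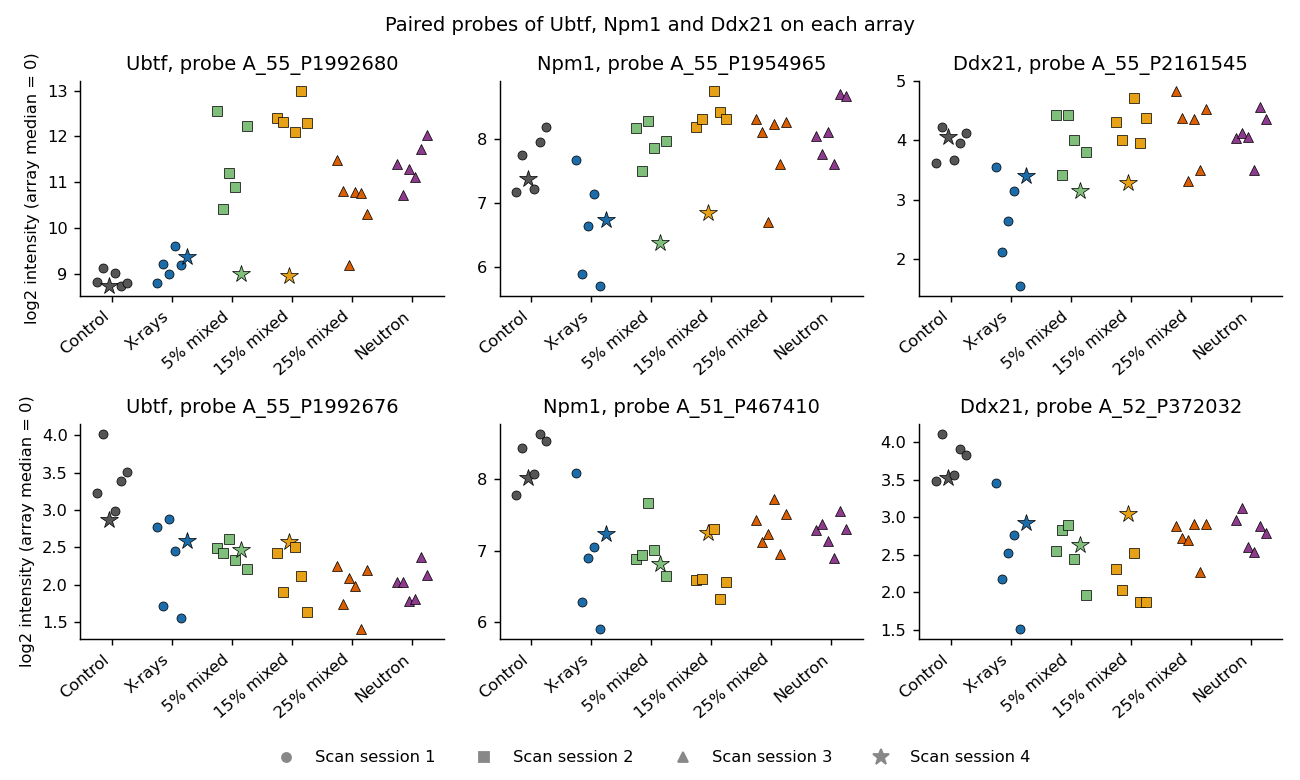
Level of 2 probes each of Ubtf, Npm1 (of 5), and Ddx21 on every array, as log2 intensity relative to the array median, with 1 symbol per scan session; the upper row shows the tested probes. Stars mark the slide shared by 4 groups, on which the 5 and 15% arrays of the upper row lie below the other arrays of their groups, while the lower row falls below controls after every exposure on most arrays.

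Each exposure with neutrons was then compared with x-rays, to ask whether radiation quality changed the response. The x-ray arrays share a session with the 5 and 15% mixed fields only through the shared slide, and none with the 25% mixed field or neutrons, so that these differences cannot be told apart from the session. No member was called in the 5% mixed field, where no gene was called at all (0%) and 4 members and 3503 genes had an unadjusted p below 0.05 in limma. In the 15% mixed field 1 member, Ubtf, was higher (2.65 ± 0.54 SE, limma adjusted p = 0.0167), where 1.67% of all genes were called higher. With the slide or the session as a block this difference was -0.42. None was called in the 25% mixed field (5 members with an unadjusted limma p below 0.05), against 2.58% of genes in either direction. After 0.75 Gy neutrons 3 members were higher than after x-rays and none lower, against 6.52% of all genes called higher. These were Ubtf by its repeat-bearing probe (2.19 ± 0.24, limma adjusted p = 6.85e-05), Npm1 by its chromosome 10 probe (1.52 ± 0.34, limma adjusted p = 0.00497), and Mybbp1a (1.16 ± 0.23, limma adjusted p = 0.00252). Mybbp1a ranged from 6.41 to 6.95 after neutrons and from 4.86 to 6.22 after x-rays, without overlap (2.24-fold, exact permutation p = 0.00216). The shared slide holds no neutron array. There, with 1 array per group, Mybbp1a differed from x-rays by -0.12 in the 5% and 0.14 in the 15% mixed field. Over the whole groups these log2 differences were 0.63 and 0.88, and neither was called. Of the chromosome 11 probes of Npm1, A_55_P2110718 gave 1.45 ± 0.31 (limma adjusted p = 0.00442 over probes) and A_51_P467410 0.35 ± 0.31 (limma adjusted p = 0.425). The other 48 repeat-bearing probes were all higher than after x-rays (median 1.43), and with the Ubtf probe that has no repeat the difference was -0.30 ± 0.25 (limma adjusted p = 0.39). Without x-ray replicate 1, 5 members were called between neutrons and x-rays.

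Of the 34 members, 28 had a positive log2 difference between neutrons and x-rays, with a median of 0.42 beside 0.094 over all genes, and 25 of these 28 did not pass the threshold. For the members called in all exposures the 95% interval of the difference included 0, at 0.52 (-0.060 to 1.09) for Nop56, 0.24 (-0.32 to 0.79) for Utp20, and 0.23 (-0.46 to 0.91) for Wdr75. Between neutrons and the 25% mixed field, which were scanned in the same session and had the same nominal neutron dose, no member was called (2 with an unadjusted limma p below 0.05), where 11.3% of genes were, and the median difference was -0.055. Over all 15077 genes, the difference between neutrons and x-rays had a Spearman correlation of -0.32 with the GC content of the probe, a description across genes that share arrays. The member probes had a median GC content of 40.8%, against 43.3% over all genes, and the part of GC content in the differences was not tested.

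**Figure D5:**
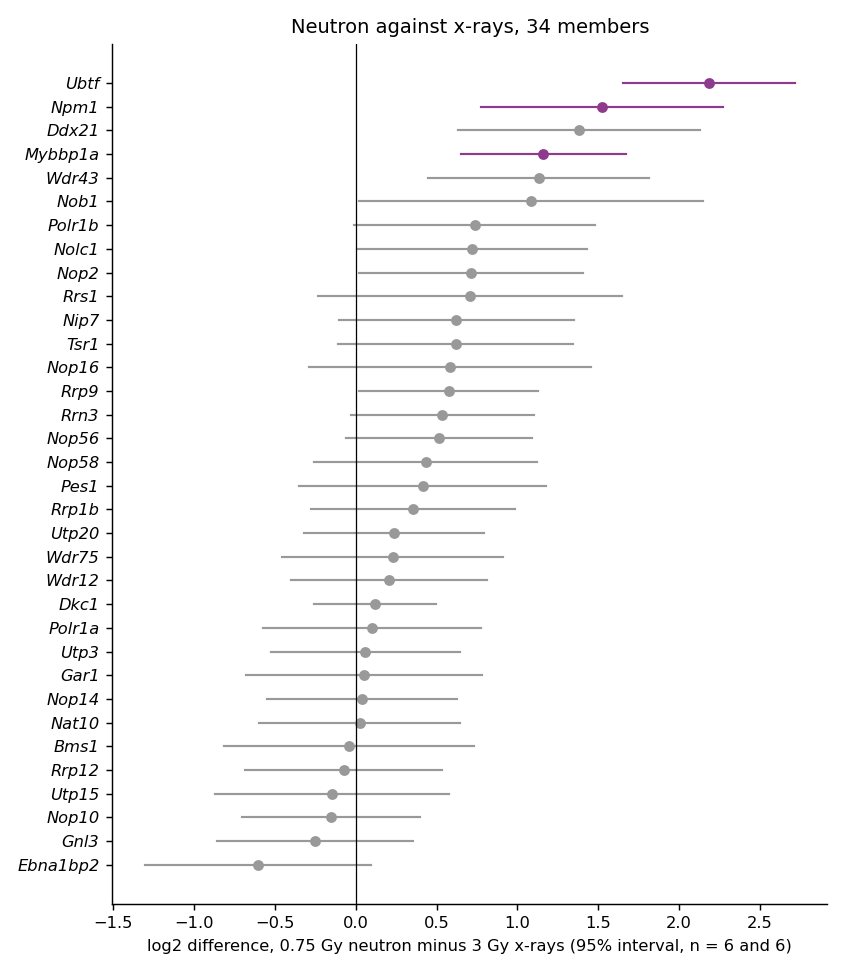
Log2 difference between 0.75 Gy neutrons and 3 Gy x-rays for the 34 members, with 95% intervals from the SE of the limma fit and 10 residual degrees of freedom (n = 6 and 6). The 3 coloured members were called, and the intervals of most others include 0.

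MYC is known to switch on many genes of ribosome production by binding the E-box CACGTG, so the promoters of the members were searched for it. RefSeq windows of 300 bases (250 before and 50 after the start, GRCm38.p6) were at hand for 35 of the 40 members, and 8 of these (22.9%) held CACGTG, which reads the same on both strands. The same letters stood in the windows of 8.09% of 27025 genes, and of 104 other ribosome biogenesis genes with a window 20.2%. The sites of called members are shown in 30 bases each with the E-box in capitals.
Rrn3, chr16:13780639-13780668, plus strand: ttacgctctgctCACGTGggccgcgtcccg
Utp20, chr10:88826765-88826794, minus strand: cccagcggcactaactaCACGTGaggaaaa
Tsr1, chr11:74898092-74898121, plus strand: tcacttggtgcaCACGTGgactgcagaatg
Mybbp1a, chr11:72441347-72441376, plus strand: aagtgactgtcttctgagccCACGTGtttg
The E-box of Rrn3 shown begins 48 bases before the start, with a further one beginning 215 bases before it, and those of Utp20, Tsr1, and Mybbp1a begin at bases 38, 25, and 41 counted from the start. The windows of Nop56, Wdr75, Utp15, Nat10, and Bms1 did not hold these letters. CACGTG also stood in the windows of Wdr43, Pes1, and Nop2, which were called in no exposure, and of Utp18, which was below background. Any tie between the motif and the calls was not tested. Of 6 MYC family genes tested, 1, 0, 1, 1, and 2 rose and 1, 0, 1, 1, and 0 fell. Myc was called lower in the 15% mixed field and in no other exposure (log2 changes of -0.83, -0.84, -1.24, -0.70, and -0.67, limma adjusted p of 0.0733, 0.0209, 0.00298, 0.0215, and 0.00906). Its lowest, median, and highest levels were 2.90, 3.47, and 3.86 in controls, 1.64, 2.56, and 4.24 after x-rays, and 1.24, 2.33, and 3.07 in the 15% mixed field. Max, the partner of MYC, rose after neutrons by 1.18 (limma adjusted p = 6.54e-05), and Mycn was below background. The antagonists of MYC, named here after their values were seen, differed. Mxd1 rose in every exposure but the 5% mixed field (1.53, 1.46, 2.02, 1.35, and 1.70), and Mnt fell after x-rays and in the 25% mixed field (-1.33, -0.97, -0.82, -0.99, and -0.57). Mxd3 and Mxd4 were called in no exposure, and Mxi1 was below background.

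A longer list of 134 further ribosome biogenesis genes, of which 105 were tested, also had mostly negative changes (92, 92, 90, 93, and 90 of 105). There 41, 37, 47, 32, and 53 fell and 1, 2, 4, 3, and 7 rose, with median log2 changes of -1.15, -0.86, -0.99, -0.78, and -0.73. Of all genes tested, 16.9, 14, 16.6, 13.9, and 20.4% were called lower and 12.9, 9.01, 12.6, 10.9, and 16.1% higher. The largest mean falls among genes called in at least 4 exposures were those of Pdcd11, a processome protein (-1.59, -1.89, -2.36, -1.84, and -1.56), Twistnb, a subunit of RNA polymerase I (-1.40, -1.81, -2.38, -1.89, and -1.61), and Znhit3, a box C/D assembly factor (-1.55, -1.64, -2.33, -1.64, and -1.89). Only 2 genes of the list rose in at least 4 exposures. Znhit6, another box C/D assembly factor, rose by 1.24, 1.75, 2.02, 1.56, and 1.49, and Exosc9, a subunit of the RNA exosome, by 1.72, 2.54, 1.32, and 1.62 outside x-rays. The rise of Exosc9 was uneven within groups. Its lowest 5 and 15% arrays, at 6.20 and 6.23, lay near the highest control (6.14), while the group medians were 7.61 and 8.88. Ribosomal protein genes did not share the direction, and 24, 23, 23, 21, and 28 of the 64 tested were negative. Of the 64, 1, 5, 7, 2, and 10 fell and 13, 3, 12, 3, and 20 rose, with median log2 changes of 0.27, 0.39, 0.75, 0.47, and 0.085. The falls were below the share of all genes called lower in every exposure. The rises were below the share of all genes called higher in the 5 and 25% mixed fields and above it in the other exposures.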

How the data were processed

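Blood RNA of 36 mice, in which the study had reduced globin RNA, was hybridised to Agilent mouse 4x44K v2 arrays, 1 colour and 1 array per mouse. The deposited scanner files hold background-corrected intensity values that the authors extracted with Agilent Feature Extraction 12.0.2, and the deposited value table holds log2 values that the authors scaled, which were used as an alternative only. The probe annotation is on mm9. From the intensities, the spots of each probe were averaged as log2 values, leaving out non-uniform spots, and the median of an array was subtracted from its values, so an arraywide change of RNA amount is removed. Following the methods of the study, probes had to be significantly above background on more than 75% of arrays and to differ by 1.5-fold or more from their own median on 20% of arrays or more, and the brightest probe that passed stood for a gene. Being above background by this flag is laxer than well above background, which 21 of the 34 members tested were on all 36 arrays. Each comparison was a limma fit (version 3.58.1, R 4.3.3) on its 12 arrays over 15077 genes, with a call at p below 0.001 and Benjamini-Hochberg adjusted p below 0.05. Single members were also given an exact two-sided permutation test. Groups came from the sample titles, and precision is limited by 6 arrays per group. Bounds for probes not well above background on any array of a group compare mean log2 values, with each dim array raised to its lowest signal well above background. Scan sessions are scan dates and slides are the array slides in the file headers. Arrays of 1 group correlated at 0.818 to 0.982 over genes.

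The members and lists were chosen with earlier results of these data known. Full values are given for members called in at least 4 of 5 exposures or in a comparison between exposures, and outside the members for Myc, Max, Mycn, and the other biogenesis genes with the largest mean changes among those called in at least 4. The fit was tested on simulated data. Alternatives changed the centring, normalization, background correction, filters, probe, value table, model, blocks, test, and threshold, and left out each array. The brightest probe on the gene's chromosome, the values of single probes, and the omission of the shared slide were added after seeing the data. Promoter sequences are from RefSeq (GRCm38.p6), and probe sequences from the array files.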

Additional observations from a re-analysis of the deposited data

Results flagged for a closer look

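In the 5% mixed field, replicate 3 stood apart from its group in Wdr75 (3.46, the other 5 arrays 2.22 to 2.58), in Tsr1 (2.56, against 1.56 to 1.88), and in the median over the members (-0.02, against -1.1 to -0.85), each time on the side of the controls. In the 15% mixed field, replicate 3, the array on the slide shared by 4 groups, stood below its group for the repeat-bearing Ubtf probe (8.95, against 12.11 to 13) and for the tested Npm1 probe (6.84, against 8.18 to 8.75). Bms1 in 25% replicate 5 was -0.84, against 1.06 to 1.43 on the other arrays, and that array had the fewest probes well above background of its group (15786). In each case the gap to the nearest array exceeded Dixon's 95% critical value for 6 arrays, and chance flags about 1 in 20 of the 66 groups examined.

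Exposures differed by limma's test of the difference itself for Ubtf between the 15% mixed field and x-rays (log2 difference 2.65) and between neutrons and x-rays (2.19), for Npm1 between neutrons and x-rays (1.52), and for Mybbp1a between neutrons and x-rays (1.16). The Ubtf and Npm1 values come from the repeat-bearing and the chromosome 10 probe.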

How the results depend on the processing

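Counts are of members called, with the reported count first. The shares of all genes given with the reported counts do not apply to the other settings. X-rays against controls (13) gave 5 with 75th percentile centring, 35 with spike-in centring, 8 with quantile normalization, 0 with normexp, 20 in 1 model over all arrays, 2 with the replicate block, 1 with the slide as a block, 30 by adjusted p alone, 4 without the slide of 4 groups, and 5 to 23 leaving out 1 array. The 5% mixed field (7) gave 31 with spike-ins, 0 with normexp, 13 from the deposited table, 2 with the replicate block, 0 with the slide or session as a block, 24 by adjusted p alone, 5 without the slide, and 4 to 18 leaving out 1 array. The 15% mixed field (16) gave 29 with spike-ins, 1 with normexp, 0 with either block, 26 by adjusted p alone, and 14 to 20 leaving out 1 array. The 25% mixed field (11) gave 7 with spike-ins, 0 with normexp, 5 from the deposited table, 6 in 1 model, 5 with the replicate block, 22 by adjusted p alone, and 5 to 11 leaving out 1 array, the 5 without control replicate 2, 5, or 6 or 25% replicate 2 or 3. Neutrons (18) gave 37 with spike-ins, 0 with normexp, and 17 to 19 leaving out 1 array. Against x-rays, the 5% mixed field (0) gave 2 in 1 model, 1 without the slide, and 0 to 1 leaving out 1 array. The 15% mixed field (1) gave 0 with the mean of probes and with either block, 4 in 1 model, 3 by adjusted p alone and without the slide, and 1 to 2 leaving out 1 array. The 25% mixed field (0) gave 1 with the background filter on every array, without the fold filter, in 1 model, with the replicate block, and with the slide as a random block, 2 by adjusted p alone, and 0 to 1 leaving out 1 array. Neutrons (3) gave 5 with the 75th percentile, the deposited table, 1 model, and adjusted p alone, 1 with spike-ins and the replicate block, 6 with quantile normalization, 0 with normexp, and 2 to 5 leaving out 1 array. Neutrons against the 25% mixed field gave 0 throughout leaving out 1 array. The replicate numbers do not pair the arrays (mean correlation of same-numbered deviations 0.037, over 0.1 in 42 of 90 pairs), so the replicate block tests a shared number only.

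Some single values reversed. Ddx21 was -1.33, -0.90, and -0.73 in the 15% and 25% mixed fields and after neutrons when arrays were centred on the probes that every array detects well, -1.48 (15%) and -0.95 (neutrons) in the deposited table, and -1.50 (neutrons) with spike-ins. Dkc1 after neutrons was -0.98 with spike-ins and -0.26 with normexp. Gnl3 (15%) was 0.0031 with either block, and Ubtf between 15% and x-rays -0.42. Npm1 by the brightest of its 2 chromosome 11 probes, A_51_P467410, was -1.25, -1.47, -0.92, and -0.99 in the 5, 15, and 25% mixed fields and after neutrons, and by the other, A_55_P2110718, which kept the direction, 0.0036, 0.12, 0.34, and 0.50. Ebna1bp2 between neutrons and x-rays (-0.605) was 0.54 without the fold filter, by its brighter probe. Wdr43 after neutrons was 0.66 with the 75th percentile, 0.57 with probes well above background, and 0.65 with quantile normalization. The cause was not tested.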
